A study of Schizosaccharomyces pombe with 16 samples.

Results

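The change in translation efficiency (TE) of wild type fission yeast, Schizosaccharomyces pombe, was measured from the libraries of WT cells, 8 of the 16 libraries of the series. Cells of strain 972, which the study lists as h-, grew in rich YES medium at 30 °C to an OD550 of 0.5. This was the exponential 0 h culture, and cells were grown for another 6 h. The labels place this time at an early point of entry into stationary phase, and the study's text also calls it exponential or pre-stationary growth. From each culture total RNA and polysomal RNA, taken from sucrose gradient fractions, were sequenced as poly(A) RNA with strand kept. The groups were WT 6h polysomes, WT 6h total, WT 0h polysomes and WT 0h total, with 2 replicates each, and the replicate number marks the experiment (A or B) in which all libraries of that number were made. The other 8 libraries come from eIF2α.S52A cells, in which alanine replaces serine 52 of eIF2α, and the study lists a Ura4 marker and a ura4-D18 allele for that strain and neither for WT cells. The TE change of a gene is (polysomes 6 h minus total 6 h) minus (polysomes 0 h minus total 0 h) in log2, so that 0 means a polysome change equal to the change in total mRNA.

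A polysome is an mRNA that carries several ribosomes at once, and the amount of an mRNA in polysomes relative to its amount in the cell is a measure of how well it is loaded with ribosomes. Loading is set mostly at initiation, where eIF2 brings the initiator tRNA to the small ribosomal subunit. Phosphorylation of its alpha subunit by the kinases Hri1, Hri2 and Gcn2 lowers the supply of active eIF2, slows translation of most mRNAs and can favour mRNAs with upstream AUGs in their leaders. Entry of yeast into stationary phase is known for falling synthesis of ribosomal proteins and for induction of stress proteins, respiration and autophagy.

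The WT libraries held 12303596 to 20522997 counts over 7014 genes. Cytosolic ribosomal protein genes took 29.8 and 26.9% of the counts in WT 6h polysomes, against 45.8 and 47.3% in WT 0h polysomes, and 12.5 and 13.2% in WT 6h total, against 23.2 and 24.6% in WT 0h total. TMM factors, which correct library sizes for such shifts, ran between 0.563 and 1.56, and all changes are relative to the other genes of a library, so that a change shared by all mRNAs is not measured. Summed levels of the 6 markers of M type (h-) cells were 57.0 to 189 CPM (counts relative to library size, with library sizes scaled by TMM) and those of the 3 markers of P type cells 111 to 402 CPM, of which sxa1 gave most. The P type genes map2 and map3, a mating factor and a receptor, had 0.605 to 7.72 CPM in polysomes. In total mRNA map3 had 11.9 to 15.6 CPM. Of the M type genes, mam1 was higher there (48.1 to 87.1 CPM), mam2 spanned 6.48 to 17.3 CPM and mfm1 was lower (0.776 to 3.74 CPM). Levels of single markers thus do not by themselves show the mating type of the cultures. The study lists both WT and eIF2α.S52A cells as h-. Summed levels of the 5 markers of meiosis and spores were 70.1 to 172 CPM. The labels do not say whether the 2 experiments started from separate colonies, so p-values measure the spread between these cultures.

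Across the transcriptome the polysome change followed the change in total mRNA. Of 6102 genes tested, 950 (15.6%) rose and 1029 (16.9%) fell in polysomes at an adjusted p under 0.05 in edgeR's quasi-likelihood test, and 854 (14.0%) rose and 903 (14.8%) fell in total mRNA. Of the 950 genes that rose in polysomes 668 also rose in total mRNA and none fell, and of the 1029 that fell 738 also fell in total mRNA. Just 2 genes moved in opposite directions with both changes called, the non-coding RNAs meu26-antisense-1 and nam1, which are named here after their values were seen. Over the 6102 genes the 2 changes had a Pearson r of 0.796 in replicate 1 and 0.852 in replicate 2, a description across genes, which share libraries and depth. The SD over genes was 1.05 for the polysome change, 0.878 for the total mRNA change and 0.551 for the TE change. Scaling by library size alone gave 2606 genes higher and 442 lower in polysomes and 1354 higher and 563 lower in total mRNA, and put the median TE change of all genes at 0.30, against 0.02 with TMM. In bulk RNA a change in part of the cells and a smaller change in every cell cannot be told apart.

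**Figure D1:**
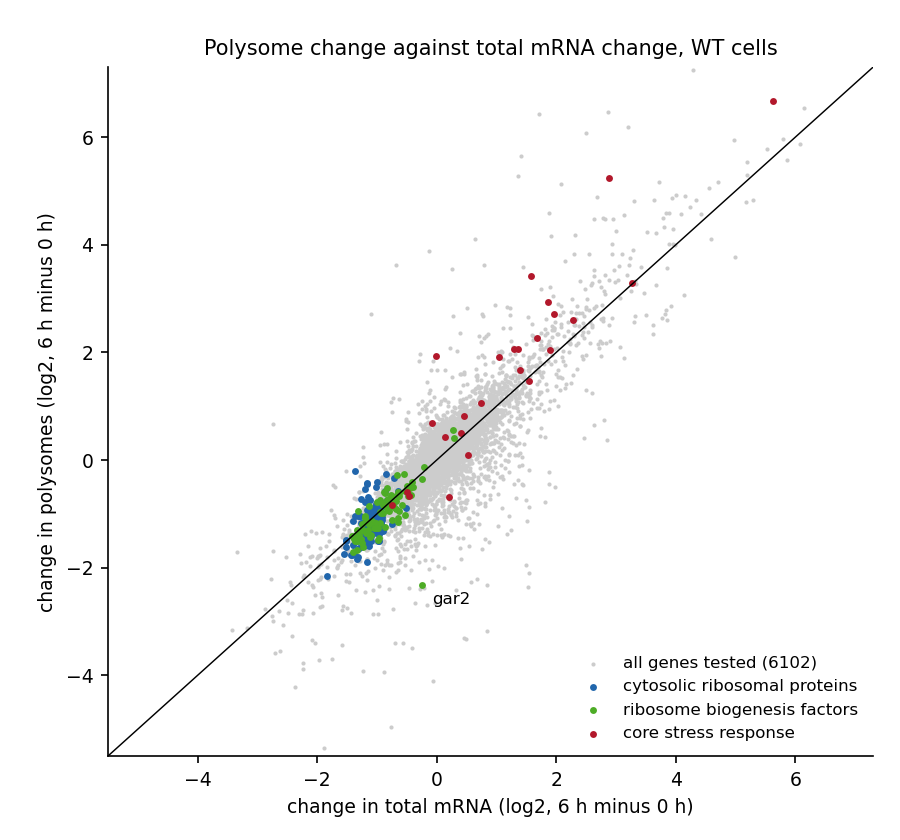
Change in polysomes (y axis) against change in total mRNA (x axis), both log2, 6 h minus 0 h, fitted over both replicates, for the 6102 genes tested in WT cells, with 6 genes outside the drawn range. The black line marks equal changes, that is, a TE change of 0. Cytosolic ribosomal protein genes (blue) and ribosome biogenesis factors (green) lie at the lower left along the line, core stress response genes (red) at the upper right and mostly above it, and gar2 far below it.

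No gene passed an adjusted p under 0.05 for the TE change in edgeR's quasi-likelihood test, so 0% of genes were called in either direction, and the lowest adjusted p was 0.0917, of gar2. At an unadjusted p under 0.05, 123 genes (2.02%) had a higher and 200 (3.28%) a lower TE at 6 h, 5.29% in all. DESeq2, run on the same counts with the same block, called 19 genes, 9 higher (0.135%) and 10 lower (0.150%), and limma-voom called gar2 alone. The TE change was within 1 log2 unit of 0 for 93.8% of genes. Between the 2 replicates it had a Pearson r of 0.398 over all genes and 0.519 over the 5155 genes whose log2 CPM averaged 2 or more, against 0.797 for the polysome change and 0.844 for the total mRNA change over all genes. For groups the text also gives the number of members whose log2 TE in both 6 h cultures lay above, or below, that in both 0 h cultures. Of all genes tested 16% lay above and 15.8% below in this way, and of the 5069 genes other than non-coding RNAs 17.3% and 12.2%. The fitted change was above 0 for 2847 of these 5069. Shares of a group near 17.3% above and 12.2% below do not set that group apart. Counts of members that rose or fell in a fraction are likewise to be read beside the shares of all genes given above.

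**Figure D2:**
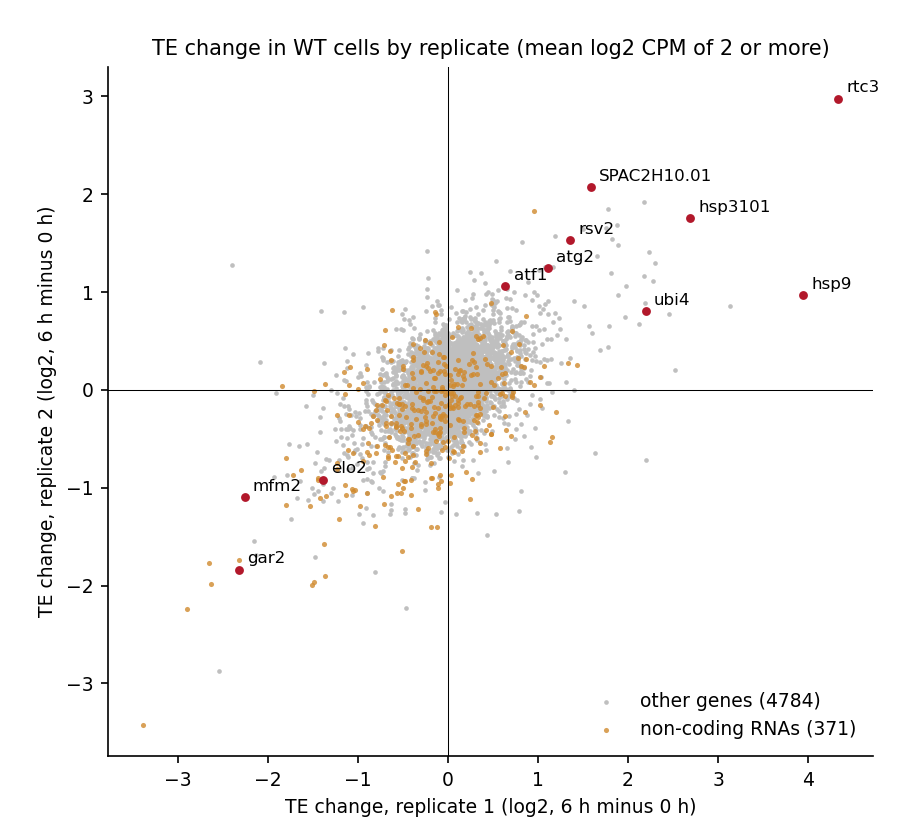
TE change of each gene in replicate 1 (x axis) and replicate 2 (y axis), log2, 6 h minus 0 h, for genes with a mean log2 CPM of 2 or more. Non-coding RNAs (371, orange) lie mostly to the lower left of the other genes (4784, grey), and labelled genes (red) are named in the text.

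Past 1 log2 unit in both replicates, 39 genes had a higher and 114 a lower TE. With a mean log2 CPM of 2 or more, 23 were higher and 35 lower, 18 of the 35 non-coding RNAs. Of the 114, 81 were non-coding RNAs, 8 small nuclear or nucleolar RNAs and 2 mitochondrial genes, and 23 were others. Of the 39, 9 were non-coding RNAs and 30 others, and polysome levels changed past the threshold for 25 of them and total mRNA levels for 12. Of the 114, polysome levels changed for 56 and total mRNA levels for 31. Over all genes tested 15.6% rose and 16.9% fell in polysomes, and 14.0% rose and 14.8% fell in total mRNA. The polysome change is a term of the TE change by which these genes were picked, so their polysome counts are not a separate result. In both replicates of eIF2α.S52A cells 15 of the 39 and 55 of the 114 lay on the same side of 0 as in WT cells. The share over all genes is not given here, so these counts do not show whether the strains share the changes.

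The gene with the lowest p for TE was gar2 (SPAC140.02), which encodes a nucleolar protein needed for rRNA processing. Its mRNA fell in polysomes to 269 and 286 CPM at 6 h, against 1483 and 1303 CPM at 0 h. In total mRNA it had 706 and 704 CPM at 6 h and 779 and 899 CPM at 0 h. The cultures thus separated in polysomes by a wide margin and in total mRNA by a small one. The polysome change was -2.33 (SE 0.17, adjusted p = 8.9e-05) and the total mRNA change -0.25 (SE 0.16, adjusted p = 0.29). The TE change was -2.08 (SE 0.23, adjusted p = 0.0917 in edgeR, 5.4e-14 in DESeq2 and 0.0497 in limma-voom), with -2.32 in replicate 1 and -1.84 in replicate 2. Without any 1 of the 8 WT libraries it stayed between -2.23 and -1.95. In eIF2α.S52A cells it was -0.30 and -0.06 in the 2 replicates.

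The calls of DESeq2 were not simply the largest TE changes, as rtc3 and hsp9, given below, were not among them. The other genes that DESeq2 called were chosen by that call, after their values were seen, and none passed edgeR's test. Among the higher ones, hsp3101 (SPCC757.03c), a glyoxalase of the Hsp31 family, had 279 and 346 CPM in polysomes at 6 h, against 10.5 and 10.6 CPM at 0 h. In total mRNA it had 61.7 and 130.0 CPM at 6 h, against 15.0 and 13.5 CPM at 0 h. Both levels rose, polysomes by 4.89 (SE 0.32) and total mRNA by 2.68 (SE 0.29), and the TE change was 2.21 (SE 0.40, adjusted p = 0.389), 2.69 in replicate 1 and 1.76 in replicate 2. SPAC2H10.01, a predicted zinc cluster transcription factor, had 52.0 and 97.04 CPM in polysomes at 6 h, against 16.6 and 17.7 CPM at 0 h. Its total mRNA had 77.8 and 111 CPM at 6 h and 74.7 and 85.5 CPM at 0 h, ranges that overlap, and its TE change was 1.86 (SE 0.29, adjusted p = 0.267), 1.58 in replicate 1 and 2.07 in replicate 2. The ubiquitin gene ubi4 had 404 and 363 CPM in polysomes at 6 h, against 54.5 and 101.03 CPM at 0 h, and a TE change of 1.48 (SE 0.34, adjusted p = 0.506), 2.19 in replicate 1 and 0.80 in replicate 2. The ribosomal protein gene rps2802 is described with its group. The remaining higher genes were smp4 (2.17 and 1.92 in the 2 replicates), prl65 (1.88 and 1.69), cum1 (1.82 and 1.198), SPAC1705.02 (1.17 and 1.25) and txc1 (0.89 and 1.11), of which prl65 and cum1 also rose in total mRNA.

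Among the lower genes that DESeq2 called, elo2, which encodes a protein of the fatty acid elongase family, had 33.3 and 45.4 CPM in polysomes at 6 h, against 125 and 119.5 CPM at 0 h. In total mRNA elo2 had 44.6 and 48.9 CPM at 6 h, against 64.1 and 68.1 CPM at 0 h. The polysome level fell by 1.65 and the total mRNA level fell by 0.50, and its TE change was -1.14 (SE 0.23, adjusted p = 0.389), -1.38 in replicate 1 and -0.92 in replicate 2. The small S. pombe gene SPBC1711.15c had a TE change of -2.70, the predicted transporter gene SPBC530.02 of -1.89 and SPAC688.16 of -1.24. The other 5 were the non-coding RNAs given below.

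The group with the highest median TE change among those with at least 10 members was the core environmental stress response, the genes that fission yeast induces under many kinds of stress. Of its 25 members 16 rose and 3 fell in polysomes and 14 rose and 1 fell in total mRNA. The median TE change was 0.32, with 0.57 in replicate 1 and 0.35 in replicate 2, against 0.02 in each replicate over all genes. In 13 members (52%) log2 TE in both 6 h cultures lay above both 0 h cultures, in 1 (4%, cmk2) below, and in 11 the cultures overlapped. No member was called for TE.

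Members differed in which fraction carried the change. The small heat shock protein gene hsp9 had 7136 and 12670.0 CPM in polysomes at 6 h, against 84.6 and 555 CPM at 0 h. In total mRNA hsp9 had 1475 and 3052 CPM at 6 h, against 269.9 and 262 CPM at 0 h. Its TE change of 2.35 (SE 0.74, adjusted p = 0.724) came to 3.95 in replicate 1 and 0.97 in replicate 2, and of its 4 pairs of libraries the 0 h polysomes differed most. Leaving out 1 library moved it between 1.42 and 3.53. For gut2, a mitochondrial glycerol-3-phosphate dehydrogenase, polysomes rose by 1.94. Its fitted total mRNA change of -0.01 averaged opposite moves, -0.76 in replicate 1 and 0.88 in replicate 2. The TE changes of gut2 were 3.13 in replicate 1 and 0.85 in replicate 2. The small heat shock gene hsp16, named after its values were seen, had the largest polysome rise in the list, 6.67 (SE 0.31), with a rise in total mRNA of 5.63 (SE 0.29) and a TE change of 1.04 (SE 0.35), 1.69 in replicate 1 and 0.41 in replicate 2. The catalase gene ctt1 rose by 2.94 in polysomes and by 1.87 in total mRNA, and its TE changes were 1.60 and 0.58. Against the trend of the list, cmk2, a kinase activated by the stress kinase Sty1, had a TE change of -0.90 (SE 0.30), -1.24 in replicate 1 and -0.52 in replicate 2, with a polysome fall of 0.69.

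Heat shock proteins and chaperones, a list that shares hsp9, hsp16 and hsp104 with the one above, had a median TE change of 0.23 over 27 members, 0.42 in replicate 1 and 0.34 in replicate 2. In 11 of them (40.7%) the 6 h cultures lay above the 0 h cultures and in 2 (7.41%) below. In polysomes 7 rose and 4 fell, and in total mRNA 5 rose and 4 fell. Over all genes 15.6% rose and 16.9% fell in polysomes, and 14.0% rose and 14.8% fell in total mRNA. Levels of some Hsp70 and Hsp90 genes differed several-fold between the 6 h cultures. For example, hsp90, named after its values were seen, had 613 and 1925 CPM in polysomes at 6 h, against 1445 and 1304 CPM at 0 h. In total mRNA hsp90 had 465 and 1572 CPM at 6 h, against 1666 and 1573 CPM at 0 h. Its TE change was 0.60 in replicate 1 and 0.56 in replicate 2. The Hsp70 gene ssa1, also named after its values were seen, had 80.9 and 553 CPM in polysomes at 6 h, against 44.1 and 23.8 CPM at 0 h, and TE changes of 1.51 and 1.64. The cytosolic chaperonin CCT, which folds actin and tubulin, had no member with separate cultures among its 8 and a median TE change of 0.08, and its lowest p were those of cct2 (0.13) and cct1 (0.11).

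Among those 5155 genes the largest fitted TE change was that of rtc3 (SPBC21C3.19), which encodes a protein of the SBDS family and is in no list. Its choice followed from its values. It had 245 and 1012 CPM in polysomes at 6 h, against 34.8 and 38.9 CPM at 0 h. In total mRNA rtc3 had 68.9 and 255 CPM at 6 h and 198 and 77.3 CPM at 0 h, which overlap. The TE change was 4.03 (SE 1.02, adjusted p = 0.506), with 4.33 in replicate 1 and 2.98 in replicate 2. It was called in edgeR (adjusted p = 0.0315, a change of 4.98) once the library WT 0h total replicate 2 was left out, the sole TE call that leaving out 1 library made. Without WT 0h total replicate 1 the change was 2.21 and without WT 6h polysomes replicate 2 it was 2.73, and neither was called.

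**Figure D3:**
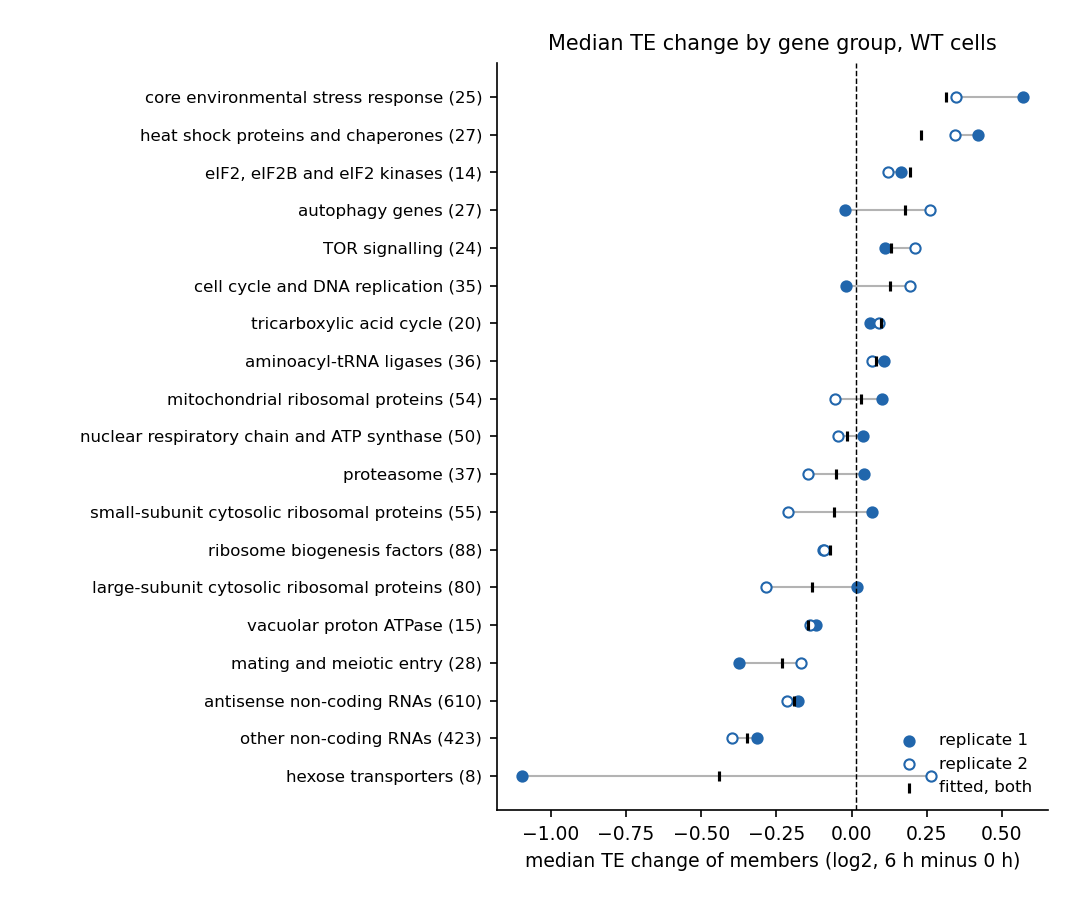
Median TE change (x axis, log2, 6 h minus 0 h) of the members of 19 gene groups in WT cells, with the number of members tested, in replicate 1 (filled), replicate 2 (open) and fitted over both (bar). The dashed line is the median of all genes, 0.02. Stress and heat shock genes lie to its right in both replicates and non-coding RNAs to its left in both, while small-subunit ribosomal protein, autophagy and hexose transporter genes have replicates on either side.

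The genes around eIF2 itself were measured next, since its phosphorylation is the question of the study. The list of eIF2, eIF2B and eIF2 kinase genes had a median TE change of 0.19 over 14 members, with 0.16 in replicate 1 and 0.12 in replicate 2. In 6 members (42.9%) the 6 h cultures lay above the 0 h cultures and in none below, and 11 of the 14 fitted changes were above 0. The kinase gene gcn2 had 45.2 and 41.6 CPM in polysomes at 6 h, against 28.6 and 22.01 CPM at 0 h. In total mRNA gcn2 had 79.7 and 80.3 CPM at 6 h, against 62.4 and 61.9 CPM at 0 h. Its polysome rise of 0.79 (SE 0.16, adjusted p = 0.007) stood beside a total mRNA change of 0.36 (adjusted p = 0.11), and its TE change was 0.43 (SE 0.22, adjusted p = 0.999). The kinase gene hri1 rose in polysomes, by 2.52, and in total mRNA, by 2.32, and its TE change was 0.20 (SE 0.25). For hri2 the TE changes were -0.05 and 0.53 in the 2 replicates. The eIF2α gene tif211 fell in polysomes, by 0.75, and in total mRNA, by 0.87, with TE changes of 0.31 and -0.06. The Gcn20 gene gcn20, an activator of Gcn2 in budding yeast, had TE changes of 0.43 and 0.22, and fil1, a GATA transcription factor with several upstream AUGs, of 0.03 and 0.40.

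Autophagy genes rose in both fractions. Of 27 members 17 rose in polysomes and 18 in total mRNA, and none fell in either, with median changes of 0.82 in polysomes and 0.68 in total mRNA. The median TE change was 0.18 in the fit, but -0.02 in replicate 1 and 0.26 in replicate 2. In 8 members (29.6%) the 6 h cultures lay above the 0 h cultures and in 1 (3.70%), nbr1, a cargo receptor of selective autophagy, below. The exception in size was atg2, whose product passes lipids to the growing autophagosome membrane. It had 15.8 and 21.2 CPM in polysomes at 6 h, against 7.22 and 7.26 CPM at 0 h. In total mRNA atg2 had 40.0 and 37.2 CPM at 6 h and 39.5 and 30.3 CPM at 0 h, which overlap. Its polysome rise was 1.36 (SE 0.24, adjusted p = 0.0035) beside a total mRNA change of 0.15 (SE 0.21, adjusted p = 0.63), and its TE change was 1.21 (SE 0.31, adjusted p = 0.506), 1.11 in replicate 1 and 1.24 in replicate 2. The kinase gene atg1 had TE changes of 0.15 and 0.35, and atg8, whose product coats the autophagosome membrane, of -0.08 and 0.50, although both mRNAs rose in both fractions.

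Transcription factors of the stress and nutrient responses included rsv2 and atf1. The zinc finger factor gene rsv2 had 16.8 and 25.7 CPM in polysomes at 6 h, against 4.77 and 4.15 CPM at 0 h. In total mRNA rsv2 had 62.5 and 42.1 CPM at 6 h and 45.8 and 19.8 CPM at 0 h, which overlap. Its polysome rise was 2.30 (SE 0.42, adjusted p = 0.0045), its total mRNA change 0.71 (SE 0.35, adjusted p = 0.16) and its TE change 1.58 (SE 0.54, adjusted p = 0.755), 1.36 in replicate 1 and 1.53 in replicate 2. Without WT 6h polysomes replicate 2 the TE change of rsv2 was 0.76, without WT 0h total replicate 1 it was 0.91, and the highest value on leaving out 1 library was 2.11. For atf1, the bZIP factor activated by Sty1, polysomes had 102.2 and 112 CPM at 6 h, against 42.0 and 32.7 CPM at 0 h. Its total mRNA had 83.5 and 76.8 CPM at 6 h, against 53.4 and 46.9 CPM at 0 h. Both levels rose, polysomes by 1.53 and total mRNA by 0.68, and the TE change was 0.86 (SE 0.22, adjusted p = 0.506), 0.64 in replicate 1 and 1.06 in replicate 2. Over the list of 35 factors the median TE change was 0.10, with -0.04 in replicate 1 and 0.20 in replicate 2. Over the 22 genes of the Sty1 pathway and bZIP factors it was 0.06, with 4 members above (18.2%) and 4 below (18.2%).

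TOR signalling, the pathway that ties growth to nutrients, had a median TE change of 0.13 over 24 genes, 0.11 in replicate 1 and 0.21 in replicate 2. In 6 members (25%) the 6 h cultures lay above the 0 h cultures and in 1 (4.17%) below, and 20 of the 24 fitted changes were above 0. Its lowest p were those of toc1, a partner of Tor2, with TE changes of 0.53 and 0.56, and of sin1, a subunit of TORC2, with 0.46 and 0.68. Polysome levels of both rose, by 1.03 for toc1 and by 0.62 for sin1. For the 12 genes of the cAMP and PKA pathway the median was 0.08, and the lowest p were those of gpa2 (-1.91 and -0.03 in the 2 replicates) and git5 (0.42 and 0.30).

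**Figure D4:**
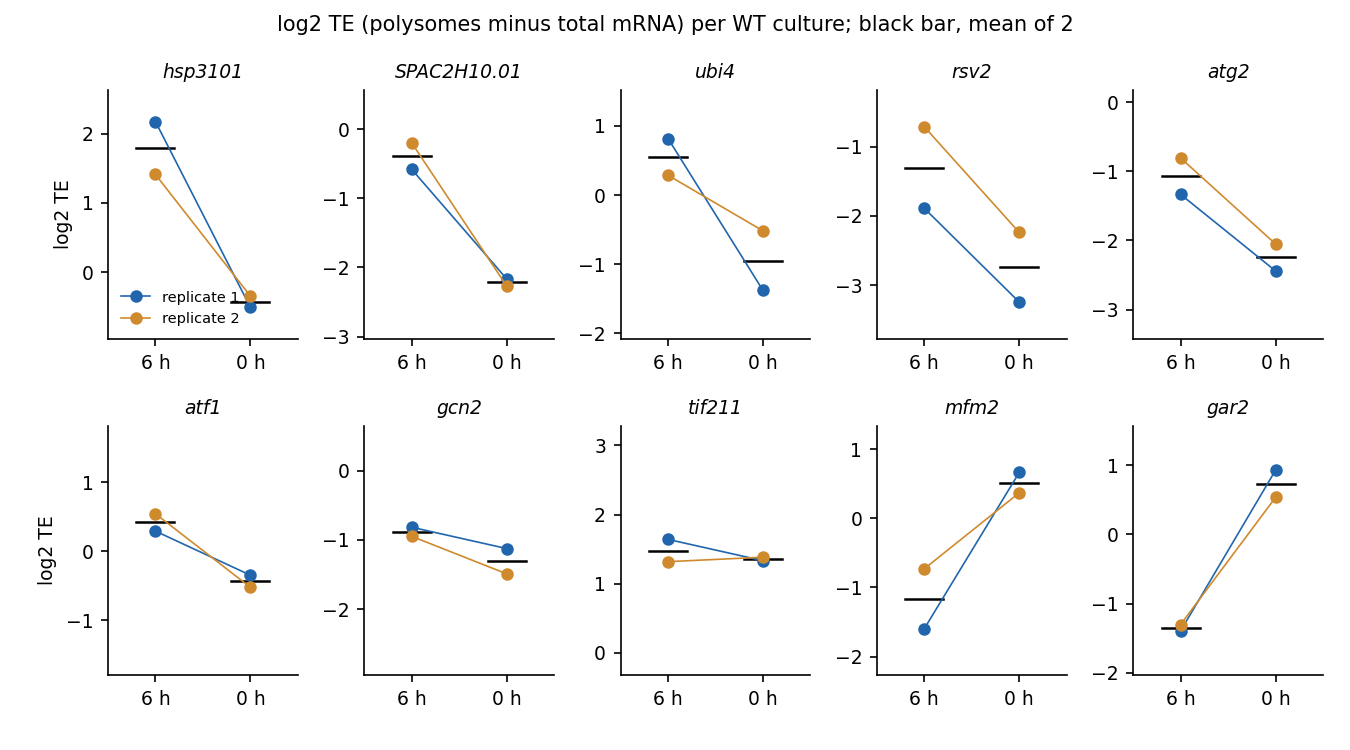
log2 TE (log2 CPM in polysomes minus log2 CPM in total mRNA, prior count 1, y axis) of 10 genes in each WT culture at 6 h (left) and 0 h (right), with a line joining the cultures of a replicate and a black bar at the mean of 2. In hsp3101, SPAC2H10.01, ubi4, rsv2, atg2, atf1 and gcn2 both 6 h cultures lie above both 0 h cultures, in mfm2 and gar2 below, and in tif211 they overlap. Each panel spans the same range of 3.6 log2 units.

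Ribosomal proteins lost mRNA from both fractions in nearly equal measure. Of 80 genes of the large subunit 78 fell in polysomes and 80 in total mRNA, with median changes of -1.24 in polysomes and -1.12 in total mRNA. Of 55 genes of the small subunit 49 fell in polysomes and 54 in total mRNA, with medians of -1.16 and -1.10 in the same order. The median TE change was -0.13 for the large subunit, 0.02 in replicate 1 and -0.29 in replicate 2, and -0.06 for the small subunit, 0.07 in replicate 1 and -0.21 in replicate 2. In the large subunit 18 members (22.5%) had 6 h cultures below and 6 (7.5%) above the 0 h cultures. In the small subunit 7 (12.7%) lay below and 9 (16.4%) above, near the 12.2% and 17.3% of genes other than non-coding RNAs. Many of these genes come in near-identical pairs, whose reads the authors' counting could have split, so their values are uncertain.

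Single ribosomal protein genes stood off from the others. For rps2802, one of the genes of S28, polysomes had 1567 and 1359 CPM at 6 h and 1649 and 1746 CPM at 0 h. Its total mRNA fell to 257 and 308 CPM at 6 h, against 711 and 743 CPM at 0 h. The polysome change was -0.21 (adjusted p = 0.36) beside a fall of 1.37 in total mRNA, and the TE change was 1.16 (SE 0.23, adjusted p = 0.41 in edgeR and 0.0047 in DESeq2). The genes rps21 (0.73) and rpl39 (0.66) had TE changes above 0 in both replicates, and rpp0 (-0.73), the scaffold of the ribosomal stalk, below 0 in both, and none of them was called.

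Ribosome biogenesis factors, which process rRNA and assemble subunits, fell with the ribosomal proteins, 77 of 88 in polysomes and 75 in total mRNA. Their median TE change was -0.07, with -0.09 in each replicate, and 16 members (18.2%) had 6 h cultures below and 6 (6.82%) above the 0 h cultures. Next to gar2 the lowest p was that of loc1, with -0.45 and -0.53. The 19 genes of RNA polymerases I and III had a median of 0.06, 0.16 in replicate 1 and 0.01 in replicate 2, with 3 members above (15.8%) and 2 below (10.5%). The 19 initiation factor genes outside eIF2 and eIF2B had 0.05, 0.10 in replicate 1 and -0.01 in replicate 2, with 4 above (21.1%) and 1 below (5.26%). In polysomes 13 polymerase genes and 14 initiation factor genes fell. Elongation and termination factors had a median of -0.11 over 10 genes, with tef5, a subunit of the exchange factor EF-1, at -0.09 and -0.58. Aminoacyl-tRNA ligases had 0.08 over 36 genes, 0.11 in replicate 1 and 0.07 in replicate 2, with 8 members above (22.2%) and 1 below (2.78%). Their lowest p was that of msf1, a mitochondrial enzyme, at 0.68 and 0.37. Mitochondrial ribosomal proteins had 0.03 over 54 genes, with 9 above (16.7%) and 5 below (9.26%), near the 17.3% and 12.2% of genes other than non-coding RNAs.

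Other groups of energy and protein metabolism had fitted medians between -0.07 and 0.12, against 0.02 over all genes. The tricarboxylic acid cycle, of whose 20 genes 10 rose in polysomes and 8 in total mRNA, had a median TE change of 0.10. The 2 replicates gave 0.06 and 0.09, with 6 members above (30%) and 1 below (5%), and 17 of the 20 fitted changes were above 0. The nuclear genes of the respiratory chain and ATP synthase had -0.01 over 50 genes, with 0.04 and -0.04 in the 2 replicates, 4 members above (8%) and 6 below (12%). The proteasome had -0.05 over 37 genes, with 0.04 and -0.15, 2 above (5.41%) and 4 below (10.8%). Glycolysis and ethanol formation had 0.02 over 18, with 0.04 and 0.02, 3 above (16.7%) and 1 below (5.56%). Glucose-repressed genes rose, 10 of 18 in polysomes and 11 in total mRNA, with a median TE change of -0.07, -0.10 in replicate 1 and 0.18 in replicate 2, and the invertase gene inv1 rose by 4.87 in polysomes and by 3.94 in total mRNA. Antioxidant enzymes had 0.12 over 22 genes, with the superoxide dismutase gene sod1 apart. Its polysome level fell to 1089.7 and 402 CPM at 6 h, against 2432 and 1845 CPM at 0 h, its total mRNA had 399.6 and 404 CPM at 6 h and 509 and 512 CPM at 0 h, and its TE change was -1.25 (SE 0.46, adjusted p = 0.81), -0.81 in replicate 1 and -1.86 in replicate 2. Of the 54 genes of amino acid biosynthesis 53 were tested, with a median of 0.04, and gdh2, a glutamate dehydrogenase, rose by 2.87 in polysomes and by 2.08 in total mRNA.

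The 15 genes of the vacuolar proton ATPase, which acidifies the vacuole, had a median TE change of -0.14, with -0.12 and -0.14 in the 2 replicates, 3 members below (20%) and none above. Its assembly factor gene vma21 had 32.8 and 32.8 CPM in polysomes at 6 h, against 54.6 and 43.1 CPM at 0 h. In total mRNA vma21 had 28.1 and 26.2 CPM at 6 h, against 26.04 and 25.2 CPM at 0 h, and its TE change was -0.65 (SE 0.22, adjusted p = 0.764), -0.84 in replicate 1 and -0.45 in replicate 2. The peptide transporter gene ptr2 fell by 2.04 in polysomes and by 0.90 in total mRNA, with TE changes of -1.27 and -1.01, and the zinc transporter gene zrt1 had -0.83 and -0.85. The 8 hexose transporter genes had a median of -0.44 that the replicates did not share, with -1.10 in replicate 1 and 0.26 in replicate 2. The groups not described otherwise, among them nitrogen transporters, cell wall, metal uptake, trehalose and glycerol, vacuolar hydrolase, mug and meu, urg, wtf and cytoskeleton genes, had fitted medians between -0.09 and 0.15. In some the replicates lay far apart, with 0.49 and -0.57 for the 3 urg genes and -0.32 and 0.11 for Tf2 retrotransposons and wtf genes.

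Among 28 mating and meiotic entry genes tested, 8 rose and 3 fell in polysomes and 12 rose and 1 fell in total mRNA, with median changes of 0.43 in polysomes and 0.79 in total mRNA. The median TE change was -0.23, with -0.37 in replicate 1 and -0.17 in replicate 2, and 9 members (32.1%) had 6 h cultures below and 3 (10.7%) above the 0 h cultures. The M-factor pheromone gene mfm2 had 19.2 and 18.9 CPM in polysomes at 6 h and 23.0 and 25.8 CPM at 0 h. Its total mRNA rose to 58.2 and 31.4 CPM at 6 h, against 14.5 and 19.9 CPM at 0 h. The TE change of mfm2 was -1.72 (SE 0.43, adjusted p = 0.506), -2.26 in replicate 1 and -1.10 in replicate 2. The meiotic activator gene rep1 had -0.48 and -1.26.

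Of 35 cell cycle and DNA replication genes 9 fell and 4 rose in polysomes, and 12 fell and 3 rose in total mRNA. Over all genes 16.9% fell and 15.6% rose in polysomes, and 14.8% fell and 14.0% rose in total mRNA. The median TE change of the list was 0.13, but -0.02 in replicate 1 and 0.19 in replicate 2. In 11 members (31.4%) the 6 h cultures lay above the 0 h cultures and in 3 (8.57%) below. The replication helicase gene mcm7 had 45.5 and 64.0 CPM in polysomes at 6 h and 49.5 and 56.3 CPM at 0 h. Its total mRNA fell to 63.5 and 66.7 CPM at 6 h, against 99.4 and 109 CPM at 0 h, and the TE change was 0.72 (SE 0.22, adjusted p = 0.705), 0.52 in replicate 1 and 0.90 in replicate 2. The ribonucleotide reductase gene cdc22 had TE changes of 0.86 and 0.51, and the histone gene hht1 of 0.94 and 0.38. The 11 histone genes had a median of 0.18, 0.27 in replicate 1 and 0.06 in replicate 2, with 2 above (18.2%) and 1 below (9.09%).

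Non-coding RNAs, of which 1033 of 1535 were tested, had a median TE change of -0.25, with -0.22 in replicate 1 and -0.27 in replicate 2, against 0.04 over the other genes in the fit. In 346 of them (33.5%) both 6 h cultures lay below both 0 h cultures and in 100 (9.68%) above. In polysomes 88 rose and 167 fell, and in total mRNA 151 rose and 105 fell. Over all genes tested 15.6% rose and 16.9% fell in polysomes, and 14.0% rose and 14.8% fell in total mRNA. The polysome falls and total mRNA rises of non-coding RNAs were thus near the shares of all genes. Their polysome rises and total mRNA falls were below those shares. Antisense RNAs had a median of -0.19 over 610 and other non-coding RNAs of -0.35 over 423. Within each band of mean log2 CPM below 6 the median was lower for non-coding RNAs than for the other genes, at -0.34 against 0.07 under 0, at -0.30 against -0.20 from 0 to 2, at -0.17 against 0.00 from 2 to 4 and at -0.17 against 0.05 from 4 to 6. Reads of non-coding RNAs were few, 0.391 and 0.387% of the counts in WT 6h polysomes, against 0.298 and 0.313% in WT 0h polysomes, and 1.11 and 1.01% in WT 6h total, against 0.799 and 0.844% in WT 0h total. The 26 small nuclear and nucleolar RNAs tested had a median of -1.05, and for both kinds of RNA the poly(A) selection of the libraries limits what was captured.

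The lowest p of this class was that of meu26-antisense-1 (SPNCRNA.827), annotated as a possible alternative UTR. It fell in polysomes to 4.06 and 5.36 CPM at 6 h, against 19.6 and 16.9 CPM at 0 h. In total mRNA it rose to 2.61 and 2.99 CPM at 6 h, against 1.16 and 0.831 CPM at 0 h. The TE change was -3.44 (SE 0.43, adjusted p = 0.107 in edgeR and 5.6e-07 in DESeq2), -3.39 in replicate 1 and -3.42 in replicate 2. The intergenic RNA nam1 had 15.5 and 13.6 CPM in polysomes at 6 h, against 23.0 and 20.3 CPM at 0 h, and 30.8 and 29.5 CPM in total mRNA at 6 h, against 19.8 and 17.5 CPM at 0 h. DESeq2 also called the RNAs SPAC19B12.01-antisense-1 (-2.90 and -2.24 in the 2 replicates), SPAC890.05-antisense-1 (-2.64 and -1.99) and rrk1 (-2.65 and -1.77), the RNA of RNase P. Of 36 mitochondrially encoded genes 6 passed the filter on counts, with a median of -1.13 and members between -2.41 and 2.41. Mitochondrially encoded genes took 1.2e-04 to 4.0e-04% of the counts in WT polysomes, so these values rest on few reads and are uncertain. For cox1, a subunit of cytochrome c oxidase, polysomes had 1.45 and 0.680 CPM at 6 h and 2.60 and 1.28 CPM at 0 h, and the TE changes were -1.72 and -1.54 in the 2 replicates. For cob1, cytochrome b, polysomes had 0.193 and 0.0755 CPM at 6 h and 0.867 and 0.0797 CPM at 0 h, and the TE changes were -2.94 and -0.65.

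Features of the mRNA that the definition of TE did not use were set beside it. Coding lengths were known for 4957 tested genes other than non-coding RNAs. The level of log2 TE was lower at longer coding length at both times, with a median of 0.85 at 6 h and 0.83 at 0 h in the shortest of 5 equal bins (median 405 nt) and -0.62 at 6 h and -0.73 at 0 h in the longest (median 2661 nt). The TE change had a median of -0.02 in the shortest bin and 0.09 in the longest, but the replicates differed, since the longest minus the shortest was -0.03 in replicate 1 and 0.26 in replicate 2. Of the genes in the longest bin 22.4% had 6 h cultures above and 7.86% below the 0 h cultures, and in the shortest bin 14.4% and 15.8%. For 4460 genes with an annotated leader the number of AUGs in it was counted. The median TE change was 0.02 with no upstream AUG (2839 genes), 0.08 with 1 (839), 0.09 with 2 (406) and 0.09 with 3 or more (376). Replicate 1 gave 0.04, 0.06, 0.03 and 0.02 in this order, and replicate 2 gave 0.01, 0.11, 0.15 and 0.17. Genes with upstream AUGs also had longer coding regions, a median of 1410 nt with 1 or more against 1053 nt with none. The TE change by upstream AUGs was not compared at equal coding length, so the 2 features were not separated here. Leader length itself gave medians between 0.03 and 0.07 in its 5 bins. Among named genes, fil1 has 6 upstream AUGs in its annotated leader, atg2 2, atf1 1 and gcn2, gar2 and rsv2 none, with just 3 nt of leader annotated for rsv2.

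**Figure D5:**
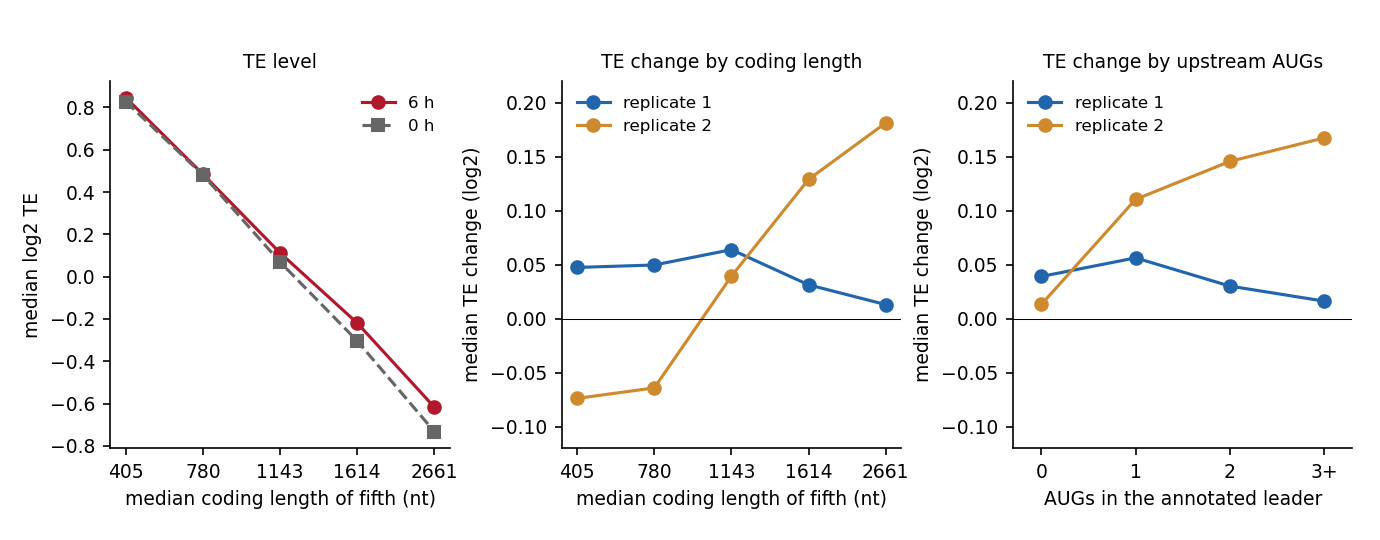
Left, median log2 TE at 6 h (red) and 0 h (grey) by coding length, in 5 bins of equal gene number. Middle and right, median TE change (log2, 6 h minus 0 h) in replicate 1 (blue) and replicate 2 (orange) by the same bins and by the number of AUGs in the annotated leader (3+, 3 or more). The level is lower at longer length at both times, and a slope of the change is seen in replicate 2, where the ends are -0.07 and 0.18, and not in replicate 1, with 0.05 and 0.01.

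To ask how WT cells differed from cells that cannot phosphorylate eIF2α, the TE change was compared between strains in 1 model of all 16 libraries. In eIF2α.S52A cells the 6 h cultures stood apart from each other, with ribosomal protein genes at 30.8% of polysome counts in replicate 1 and 45.5% in replicate 2, and at 15.5% and 22.3% of total counts. The TE change of WT cells correlated across 5121 genes at r = 0.515 between its own replicates, and that of eIF2α.S52A cells at 0.303. Between the strains it was 0.437 in replicate 1 and 0.308 in replicate 2, and across replicate numbers 0.050 for WT replicate 1 with S52A replicate 2 and 0.401 for WT replicate 2 with S52A replicate 1. Over 6170 genes no difference in TE change, WT minus eIF2α.S52A, was called by edgeR (lowest adjusted p = 0.658). An unadjusted p under 0.05 was seen for 72 genes (1.17%), and rpp202 was the 1 gene (0.0149%) that DESeq2 called, as higher. Within eIF2α.S52A cells edgeR called no TE change, with 2.72% of genes at an unadjusted p under 0.05, and DESeq2 called 6 genes lower (0.0897%). Leaving out S52A 6h polysomes replicate 2 or S52A 6h total replicate 2 called no gene either, with 143 and 88 genes at an unadjusted p under 0.05.

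The 5 genes with the lowest p in that comparison were rpp202, gar2 and 3 RNAs with few reads. For rpp202, an acidic protein of the ribosomal stalk and one of several paralogs, whose reads may have been split, the TE change was 1.10 and 0.08 in the 2 replicates of WT cells, against -2.15 and -2.05 in the mutant. The difference was 2.71 (SE 0.47, adjusted p = 0.658 in edgeR and 2.3e-05 in DESeq2). For gar2 the difference was -1.90 (SE 0.50, adjusted p = 1). The RNAs were iws1-antisense-1 (-2.25), SPNCRNA.1496 (-2.97) and snoR02, which had a count of 0 in both WT 6h polysomes libraries and so has no usable fold.

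At the level of groups, the stress list had a median TE change of 0.57 and 0.35 in the replicates of WT cells, against 0.64 and -0.25 in the mutant, and heat shock proteins 0.42 and 0.34 in WT cells, against 1.004 and -0.12 in the mutant. Ribosomal proteins of the large subunit had 0.02 and -0.29 in WT cells, against -0.66 and -0.43 in the mutant, and those of the small subunit 0.07 and -0.21 in WT cells, against -0.66 and -0.44 in the mutant. For both subunits both mutant values lay below both WT values, and this difference was not tested. Autophagy genes had -0.02 and 0.26 in WT cells, against 0.03 and 0.00 in the mutant, and non-coding RNAs -0.22 and -0.27 in WT cells, against -0.03 and -0.16 in the mutant. For genes of the study's question the difference did not pass the test, with 1.49 (SE 0.81) for rsv2, 0.47 (SE 0.52) for fil1, 0.15 (SE 0.47) for gcn2 and -0.22 (SE 0.67) for hri1. The differences for tif211, hri2, atg1 and atg8 were not called either. For atg2 and atf1, named for a low p in their lists, the difference was 0.81 (SE 0.43) and 0.29 (SE 0.59). None of the values given here had an adjusted p below 1.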

How the data were processed

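Per the labels and the study's methods, the authors aligned paired reads with STAR to ASM294v2 and assigned them to genes by strand with QoRTs, and no tool version is stated in the sources used. The deposited table holds raw counts of reads per gene, which were used here, and the authors' normalized values were not. In 44 rows the description cites another gene than the identifier, and these rows are in no list. Counts of genes kept by filterByExpr were scaled by TMM and tested with edgeR 4.0.16 (quasi-likelihood F-test, R 4.3.3) in 1 model of the 4 WT groups with the replicate number as a block, and the Benjamini-Hochberg adjustment covered every gene tested. The labels give same-numbered libraries the same experiment, so the numbers pair the samples, and their deviations correlated at 0.08 to 0.60 between groups. SE is the log2 fold change over the square root of F. log2 TE of a culture used log2 CPM with a prior count of 1. The strain difference was fitted on all 16 libraries. DESeq2 1.42.0 and limma 3.58.1 were alternatives. Scripts were tested on simulated data.

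The 40 gene lists and the genes followed were chosen with earlier results of these data known, so lists carry no test. Named genes were the 2 of lowest p in each list, genes of the study's question and the 5 of lowest p between strains, and others were named after their values were seen. Coding length, leaders and upstream AUGs came from RefSeq's ASM294v3 annotation by locus tag (6846 of 7014 genes matched).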

Additional observations from a re-analysis of the deposited data

Results flagged for a closer look

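In 13 genes, 12.9% of the genes named in the text or listed by rule, both replicates of WT cells moved to one side of 0 in TE and both of eIF2α.S52A cells to the other. The same was seen for 11.1% of all 6102 genes tested in both fits. The differences, WT minus eIF2α.S52A, were 2.71 for rpp202, 1.31 for rps21, 0.73 for pdc201, 0.73 for git5, 0.63 for atp18, 0.47 for fil1, 0.35 for cct2, -0.33 for pre1, -0.45 for pmo25, -0.50 for tim11, -1.39 for elo2, -1.98 for mug10 and -2.25 for iws1-antisense-1. None passed edgeR's test of the difference itself, where the adjusted p was 0.658 for rpp202 and 1 for the others.

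The medians of 5 of 42 groups, relative to the median of all genes, also lay on opposite sides in the 2 strains. The 42 were the 39 lists with 5 or more members, antisense and other non-coding RNAs apart, and the genes other than non-coding RNAs. The differences were 0.20 for eIF2, eIF2B and eIF2 kinases, 0.21 for iron, zinc and phosphate uptake, 0.19 for glycolysis and ethanol formation, 0.18 for vacuolar proteases and hydrolases and 0.080 for amino acid biosynthesis. Several of the medians lay close to that of all genes. Relative to it, glycolysis had 0.026 and 0.0036 in the replicates of WT cells. Amino acid biosynthesis had 0.0068 in WT replicate 2 and vacuolar proteases and hydrolases 0.0090 in WT replicate 1. The eIF2 list had -0.012 in replicate 2 of eIF2α.S52A cells. The differences between strains were not tested.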

How the results depend on the processing

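Without the replicate block, or with all 16 libraries and the block, no TE change was called (211 and 224 genes at an unadjusted p under 0.05), and with 16 libraries and no replicate block 1 was, meu26-antisense-1. DESeq2 called 19 and limma-voom 1. Polysome and total mRNA calls, 1979 and 1757, came to 1564 and 1247 without the block, to 1078 and 741 with 16 libraries and no block, and to 3048 and 1917 with library size alone. Leaving out 1 library gave 0 to 1 TE calls, 1082 to 1915 polysome calls and 854 to 1839 total mRNA calls, and the counts moved by over 1.5 times without WT 0h polysomes replicate 1 (1082) or 2 (1095) or WT 6h polysomes replicate 2 (1187), and without WT 0h total replicate 1 (1050) or 2 (854) or WT 6h total replicate 1 (939) or 2 (1077). The strain difference had 0 calls without the replicate block, with library size alone, with no filter on low counts and without any 1 library, and 1 call in DESeq2. Of the 39 groups with 5 or more members 20 lay on the same side of all genes in both replicates, and 18 with library size alone.

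Direction turned with library size alone for rpc1 (0.043), pts1 (0.043) and adf1 (0.14), and for urg1 with 16 libraries and the block (-0.073), limma-voom (-0.040) and culture as block (-0.036). Leaving out 1 library turned it for cct2 (-0.086 to 0.37), cct1 (-0.052 to 0.30), ght2 (-1.02 to 0.068), ght4 (-1.27 to 0.24), urg3 (-0.93 to 0.53), urg1 (-1.19 to 0.99), adf1 (-0.32 to 0.028), tif211 (-0.0093 to 0.24), hri1 (-0.050 to 0.41), hri2 (-0.16 to 0.63), fil1 (-0.0072 to 0.43) and atg8 (-0.13 to 0.53). The cause was not tested. With 2 cultures a group, and few reads for many non-coding RNAs, a small TE change was not detectable here. Large TE changes also went uncalled in the main edgeR fit, among them those of gar2 (-2.08), hsp3101 (2.21), hsp9 (2.35) and rtc3 (4.03). The absence of calls in that fit therefore does not show that TE stayed the same.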
